A study of Mus musculus with 2 samples.

Results

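Homer, Shank and Dlgap proteins are the scaffolds that sit beneath the receptors of excitatory synapses. The genes described here are Homer1, Homer2, Homer3, Shank1, Shank2, Shank3, Dlgap1, Dlgap2, Dlgap3 and Dlgap4, taken by symbol, which makes 10 of the 55536 gene entries in the deposited tables. RNA was measured in the left cerebral cortex of 2 adult male B6CASTF1/J mice aged 8 to 10 months, an F1 hybrid of C57BL/6J and CAST/EiJ obtained from The Jackson Laboratory. Each library was made with a strand-keeping kit from 300 ng of total RNA, depleted of ribosomal RNA, to which ERCC spike-ins (synthetic RNAs of known amount) were added. The labels give the libraries as biological replicates 1 (animal 2) and 2 (animal 4), and both carry the same donor label. No treatment or genotype was compared, so the data give the level of each gene, its transcript forms and the difference between 2 animals. With 1 library per animal no difference between the animals has a replicate check, and no p-value is given.

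In the postsynaptic density these proteins form a chain. Dlgap proteins bind the Dlg scaffolds that hold glutamate receptors and, through their C terminus, the PDZ domain of Shank. Shank proteins carry a proline-rich stretch that binds Homer, and a SAM domain through which they assemble into sheets. Long Homer proteins have an Ena/VASP homology domain that binds Shank, glutamate receptors and intracellular calcium channels, and a coiled coil that joins them into tetramers. Short Homer1 proteins keep the binding domain and lack the coiled coil, so they uncouple what the long forms hold together. The best known of them, Homer1a, is an immediate early gene product of active neurons.

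The coding sequence shows where the Homer1 forms part. Homer1 lies on chromosome 13 (93299635 to 93405129, plus strand, mm10, GENCODE M21 annotation), and its abundant forms part after position 93356079, the end of the fifth coding exon of the 366-codon form Homer1-203. Shown 5′ to 3′ are the last 30 shared coding bases in lower case, followed in capitals by the bases that each form adds. Homer1-204, Homer1-205 and Homer1-207 are printed to their stop codon, and the long forms for 40 bases.
Homer1-204: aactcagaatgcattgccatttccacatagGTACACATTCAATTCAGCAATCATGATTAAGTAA
Homer1-205: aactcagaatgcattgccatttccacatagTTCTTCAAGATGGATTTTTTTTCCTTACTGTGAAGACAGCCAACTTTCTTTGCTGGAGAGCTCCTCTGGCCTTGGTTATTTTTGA
Homer1-207: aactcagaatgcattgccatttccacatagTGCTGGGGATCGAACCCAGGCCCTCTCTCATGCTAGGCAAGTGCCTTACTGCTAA
Homer1-203: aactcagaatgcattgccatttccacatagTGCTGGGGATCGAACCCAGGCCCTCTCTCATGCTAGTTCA
Homer1-202: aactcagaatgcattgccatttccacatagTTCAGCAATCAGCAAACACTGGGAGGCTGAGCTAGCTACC
Homer1-204 reads on past the fifth coding exon and stops after 34 added bases, stop codon included, which gives 186 codons, the layout of Homer1a. Homer1-207 uses the same next exon as the long form Homer1-203 for 36 bases, then reads on where Homer1-203 is spliced, and ends at 193 codons. The 370-codon long form Homer1-202 leaves that 36-base exon out and has its own start at 93308034. Homer1-204 has 4383 of its 5713 bases in no other annotated Homer1 transcript, against 709 of 2468 for Homer1-207, 1666 of 4287 for Homer1-202 and 0 of 3052 for Homer1-203. Homer1-203 thus has no exon base of its own, and its level was divided out of shared sequence.

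Dlgap proteins end in the stretch that Shank binds. The last 30 coding bases and the stop codon of the leading transcript of each gene are shown 5′ to 3′, with the last 12 coding bases in capitals.
Dlgap1-211: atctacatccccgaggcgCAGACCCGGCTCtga
Dlgap2-203: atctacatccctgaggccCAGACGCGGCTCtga
Dlgap3-201: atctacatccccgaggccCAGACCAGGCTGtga
Dlgap4-205: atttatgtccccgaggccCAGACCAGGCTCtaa
Of these 12 bases, 9 were identical in all 4 genes, and of the 18 coding bases before them, 13 were. The genes lie on chromosomes 17, 8, 4 and 2, all on the plus strand. Across all annotated transcripts of the 10 genes, the longest run of bases shared between different members was 33, between Homer1 and Shank2.

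Every member was expressed in the dissected tissue, where markers of striatal neurons were also found beside those of cortex, and the levels spanned from 4.25 TPM for Homer3 to 248 TPM for Shank1. TPM is a level corrected for transcript length and for library size, so it can be compared between genes. Values are from the authors' gene table, called here the first quantification, and the mean ± SD is over the 2 animals (n = 2). In bulk tissue, fewer cells of a type and less RNA per cell cannot be told apart.

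**Figure D1:**
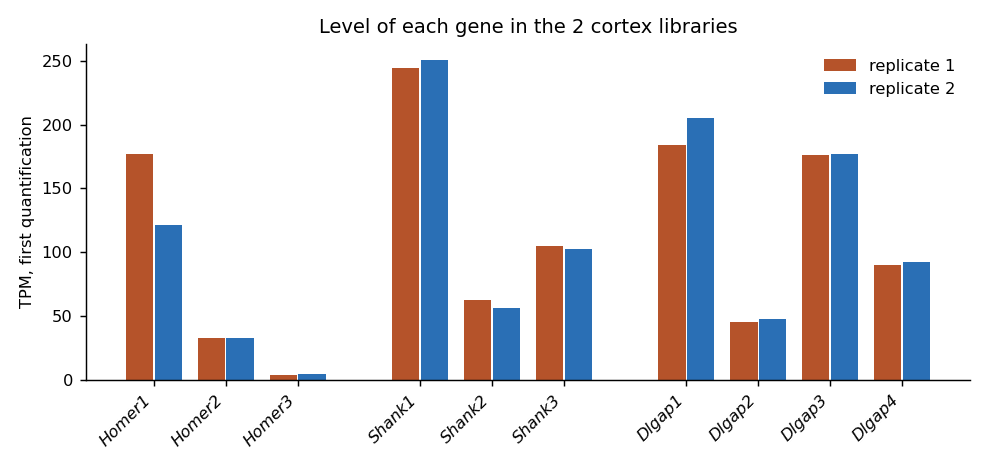
Level of each Homer, Shank and Dlgap gene in TPM (vertical axis, from 0) in replicate 1 (left bar) and replicate 2 (right bar), with genes grouped by family. The bars of Homer1 reach 177 and 121 TPM, and those of Dlgap3 176 and 177 TPM.

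Among the Homer genes, Homer1 was the main form. Its level was 177 TPM in replicate 1 against 121 in replicate 2, with a mean of 149 ± 39.4 TPM. It supplied 82.8% and 76.3% of the summed Homer TPM in replicates 1 and 2. Homer2 (chromosome 7, 81600481 to 81707527, minus strand), which encodes a constitutive coiled-coil Homer, had 32.7 TPM in replicate 1 and 33.2 TPM in replicate 2. Homer3 (chromosome 8, 70282827 to 70294361, plus strand), known for its high expression in cerebellar Purkinje cells, had 3.94 and 4.55 TPM, on only 122 and 163 expected counts. The order Homer1, Homer2, Homer3 held in both animals. An exon of Homer3 overlaps Ddx49 on the opposite strand, which had 432 and 487 counts. Whether the counting used the strand is not stated in the sources used here, so reads of that overlap cannot be told apart.

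Of the Shank genes, Shank1 was the highest and was the highest of all 10 members. Shank1 (chromosome 7, 44310253 to 44360572, plus strand), which encodes a scaffold of mature spine heads, had 244 TPM in replicate 1 and 250.7 TPM in replicate 2. Shank3 (chromosome 15, 89499623 to 89560261, plus strand), the gene lost in Phelan-McDermid syndrome, had 105 and 102 TPM. Shank2 (chromosome 7, 144001928 to 144424494, plus strand), which is linked to autism, had 62.3 and 56.5 TPM. The sum of the Shank genes was nearly the same in the animals, 412 TPM in replicate 1 against 409.5 in replicate 2. Shank1 made up 60.3 ± 1.31% of it, Shank3 25.2 ± 0.367% and Shank2 14.5 ± 0.945% (n = 2).

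Dlgap1 and Dlgap3 led the Dlgap family. Dlgap1 (chromosome 17, 69969073 to 70821413, plus strand), which encodes the protein also named GKAP or SAPAP1, had 184 TPM in replicate 1 and 205 TPM in replicate 2. Dlgap3 (chromosome 4, 127169204 to 127237022, plus strand), whose loss causes compulsive grooming in mice, had 176 and 177 TPM. Dlgap4 (chromosome 2, 156613705 to 156764363, plus strand) had 90.2 and 92.5 TPM. Dlgap2 (chromosome 8, 14095865 to 14847680, plus strand) was the lowest, with 45.3 and 47.6 TPM. The 4 genes summed to 496 TPM in replicate 1 and 522 TPM in replicate 2, above the Shank sum and above the Homer sum of 214 and 159 TPM.

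By mean level the order was Shank1, Dlgap1, Dlgap3, Homer1, Shank3, Dlgap4, Shank2, Dlgap2, Homer2 and Homer3. Neighbours were called apart where both animals of the higher gene lay above both of the lower and the means differed by more than the summed SDs. By that rule Dlgap3 (177 ± 0.148 TPM) and Homer1 (149 ± 39.4 TPM) were not apart, and the other neighbours were. Among 22028 protein-coding genes, Shank1 ranked 237, Dlgap1 349, Dlgap3 400 and Homer1 524 by mean TPM. Homer2 ranked 3598 and Homer3 10898. The second quantification is the authors' separate estimate from the reads, whose TPM shift as a whole between the libraries. By its means it put Dlgap3 (217 TPM) above Dlgap1 (197 TPM) and kept every other place. That swap held in replicate 1 only, with 204 TPM for Dlgap3 against 155 for Dlgap1. There, transcripts not annotated as protein coding took 32.9% of Dlgap3, all of it Dlgap3-204, and 9.35% of Dlgap1. In replicate 2 Dlgap1 was the higher, with 239 TPM against 229 for Dlgap3.

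The genes differed in how much of their level came from transcripts that are not annotated as protein coding, such as retained introns and processed transcripts. For Shank1, such transcripts took 20.2% of the TPM in replicate 1 and 20.7% in replicate 2, yet 2.41% and 2.43% of its expected counts. Dlgap2 showed 28.4% and 29.2% of TPM against 14.7% and 15.6% of counts, and Shank3 22.9% and 20.2% of TPM against 7.50% and 4.21% of counts. The noncoding Shank1 transcripts are 608 to 987 bases long, and TPM divides by length. Homer2 showed the widest gap between the animals, with 4.07% of TPM in replicate 1 and 18.4% in replicate 2, against 1.13% and 2.15% of counts. With protein-coding transcripts only, Shank1 had 195 and 199 TPM and remained first, while Shank3 (81.0 and 81.6 TPM) ranked below Dlgap4 (86.3 and 87.6 TPM). Homer1, Shank2, Dlgap3 and Dlgap4 had at most 5.40% of TPM outside coding transcripts in either library.

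**Figure D2:**
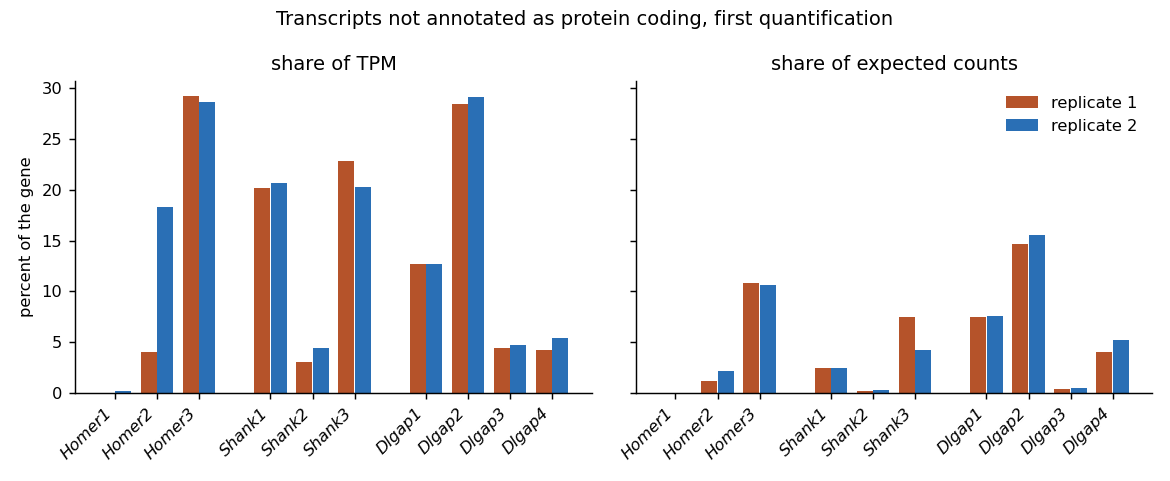
Percent of each gene assigned to transcripts not annotated as protein coding, as a share of TPM (left panel) and of expected counts (right panel), in replicate 1 (left bar) and replicate 2 (right bar). Shank1 stood at 20.2% and 20.7% of TPM but at 2.41% and 2.43% of counts.

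For Dlgap3 the share of the forms depended on the quantification. Dlgap3-204, a noncoding transcript of 438 bases, had 7.86 TPM in replicate 1 and 8.35 TPM in replicate 2 in the first quantification. In the second it had 67.2 and 34.5 TPM, which was 32.9% and 15.1% of the gene. The coding form Dlgap3-201 (977 codons) led in both, with 76.9% and 79.7% of the gene in the first and 52.2% and 63.9% in the second.

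For 8 of the 10 genes the leading transcript was the same in both animals and by both quantifications; the exceptions were Homer1 and Homer3. Shank1 was led by Shank1-203 (2167 codons), with 47.0% of the gene in replicate 1 and 47.5% in replicate 2, ahead of Shank1-201 (2158 codons) with a mean of 20.6%. Shank3 was led by Shank3-203 (1805 codons) with 39.2% and 38.8%, ahead of Shank3-201 (1730 codons) with 23.0% and 26.3%. Both are the longest coding forms annotated for Shank3.

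Shank2 was mostly of shorter forms that start inside the gene. Shank2-205 (1262 codons, start 144284439) held 57.9% of the gene in replicate 1 and 52.9% in replicate 2. Shank2-202 (1472 codons, start 144175529) held 31.5% and 35.8%. The longest form, Shank2-203 (1841 codons), looked at after its values were seen, held 4.59% and 4.34%. The small difference of Shank2 between the animals lay in Shank2-205, which had a log2 ratio of replicate 1 over replicate 2 of 0.32, against 0.00 for Shank2-202.

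Dlgap1 was likewise mostly of its shorter forms. With bounds set after the values were seen, coding forms under 750 codons held 66.5% of the gene in replicate 1 and 67.1% in replicate 2, against 20.8% and 20.2% for forms of at least 900 codons. Dlgap1-211 (682 codons, start 70522136) led with 35.7% and 36.3%. Dlgap2 was led by Dlgap2-203 (1059 codons, 65.6% and 68.2%), and Dlgap4 by Dlgap4-205 (989 codons, 70.4% and 62.9%).

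By TPM, Homer2 was mainly divided between 2 forms. Homer2-202 (290 codons) held 39.1% of the gene in replicate 1 and 36.8% in replicate 2, and Homer2-201 (343 codons) 34.1% and 30.8%. As a share of expected counts, Homer2-202 held a mean of 84.4%. Homer2-202 is 10982 bases long and Homer2-201 1736, and TPM divides by length. Homer3 could not be resolved into forms at its depth. The first quantification placed 70.7% of it on Homer3-201 in replicate 1 and 71.4% on Homer3-203 in replicate 2, with 0 for the other form each time. Both encode 359 codons. The second quantification gave Homer3-201 29.8% and 37.9% and Homer3-203 33.1% and 14.5%.

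Between the animals, Homer1 was the member that stood apart. The ratio is of expected counts in replicate 1 over replicate 2 after TMM scaling, which sets the bulk of genes to no change, with a prior count of 2. Intervals are exact 95% Clopper-Pearson intervals and cover counting error only. Homer1 had 11269 expected counts in replicate 1 and 8077 in replicate 2, which is 459 and 293 CPM (counts scaled to library size) and 1.57-fold higher in replicate 1 (interval 1.52 to 1.61). The second quantification also gave 1.57-fold. Of the 10 members, 1 was at least 25% higher in replicate 1 and 0 were at least 25% higher in replicate 2. Of 14169 genes with at least 50 counts on average, 13.0% were that far apart in either direction, 5.97% with replicate 1 higher and 7.00% with replicate 2 higher. All 10 members passed that minimum. At 1.5-fold higher in replicate 1, where Homer1 also lies, the share of all genes was 1.84%.

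**Figure D3:**
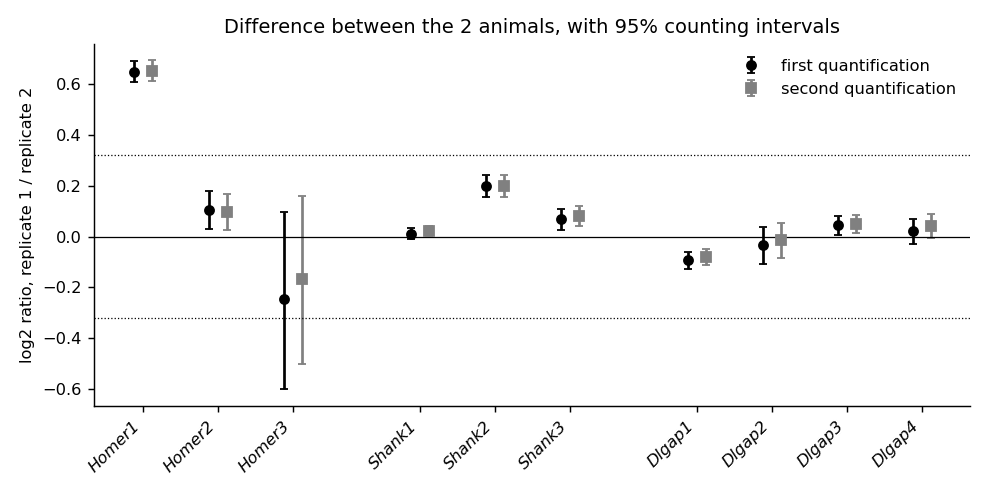
Log2 ratio of replicate 1 over replicate 2 (vertical axis) for each gene by the first (circles) and second (squares) quantification, with 95% counting intervals and dotted lines at a difference of 25%. Homer1 lies at 0.65 by both, and the points of the other genes lie between the dotted lines.

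The other members were close to equal. Shank2 was 1.15-fold higher in replicate 1 (interval 1.11 to 1.18), Homer2 1.07-fold and Shank3 1.05-fold. Dlgap3, Dlgap4 and Shank1 lay at log2 ratios of 0.05, 0.02 and 0.01. Dlgap2 and Dlgap1 lay at -0.03 and -0.09. Homer3 lay at -0.25, with a counting interval from -0.60 to 0.10. All members except Homer1 were inside the range from the 5th to the 95th percentile of all genes, -0.39 to 0.36.

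The difference in Homer1 lay in its short transcripts. Short means a complete coding sequence under 250 codons, and long one of at least 300 codons. The short transcripts summed to 111 TPM in replicate 1 and 56.8 TPM in replicate 2, and were 2.13-fold higher in replicate 1 (interval 2.05 to 2.22). The long transcripts summed to 65.6 and 64.2 TPM, 1.06-fold (1.01 to 1.10). The second quantification gave 2.02-fold for the short and 1.11-fold for the long transcripts. Short transcripts made up 62.9% of Homer1 TPM in replicate 1 and 46.9% in replicate 2. By the second quantification the gap was smaller, with 63.7% in replicate 1 and 56.0% in replicate 2. As a share of expected counts they made up 64.5% (interval 63.6 to 65.4) and 47.3% (46.2 to 48.4).

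Homer1-204, the form laid out as Homer1a, differed most of the 4 forms above 20 TPM in both libraries. It had 47.7 TPM in replicate 1 and 20.3 TPM in replicate 2, on 4705 and 2185 expected counts. It was 2.42-fold higher in replicate 1 (interval 2.30 to 2.55), and 2.47-fold by the second quantification. The authors' deposited bounds on its TPM, whose level is not stated, were 44.3 to 47.2 in replicate 1 and 18.7 to 20.5 in replicate 2, and did not overlap, although the upper bound in replicate 1 lies below the deposited TPM itself. Over 28756 transcripts, 4.84% were at least 2-fold higher in replicate 1. Homer1-204 alone accounted for 67.7% of the difference of the gene in CPM.

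Homer1-207 had 47.3 TPM in replicate 1 and 27.6 TPM in replicate 2, 1.77-fold higher (interval 1.65 to 1.90), or 1.56-fold by the second quantification, and accounted for 21.1% of the difference. Homer1-206 (233 codons) had 10.3 and 7.21 TPM, 1.47-fold higher (1.28 to 1.70), or 1.93-fold by the second quantification. Homer1-205 had 5.11 and 1.66 TPM on 129 and 45.6 expected counts, 3.05-fold higher (2.23 to 4.51), or 2.14-fold by the second quantification. Homer1-206 has 0 of its 2580 bases to itself and Homer1-205 35 of 1533, so their levels rest largely on dividing shared sequence. All 4 of these forms end before the last exon of the long forms, and each had more scaled counts in replicate 1 by both quantifications. The deposited TPM bounds overlapped between the animals for Homer1-205 and Homer1-206.

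The long forms differed little. Homer1-203, which corresponds in length to the form known as Homer1c, had 38.2 TPM in replicate 1 and 37.7 TPM in replicate 2, 1.05-fold (interval 0.983 to 1.11). Homer1-202 had 27.4 and 26.5 TPM, 1.07-fold (1.01 to 1.14). The deposited TPM bounds of both overlapped between the animals. Homer1-201, the 354-codon form, was listed at 0 in both libraries by both quantifications. It has 0 of its 2765 bases to itself, so this 0 rests on dividing shared sequence. Its deposited upper TPM bounds were 1.03 in replicate 1 and 1.07 in replicate 2. The ratio of Homer1-204 to the long transcripts was 0.726 in replicate 1 and 0.317 in replicate 2, and 0.729 and 0.326 by the second quantification.

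**Figure D4:**
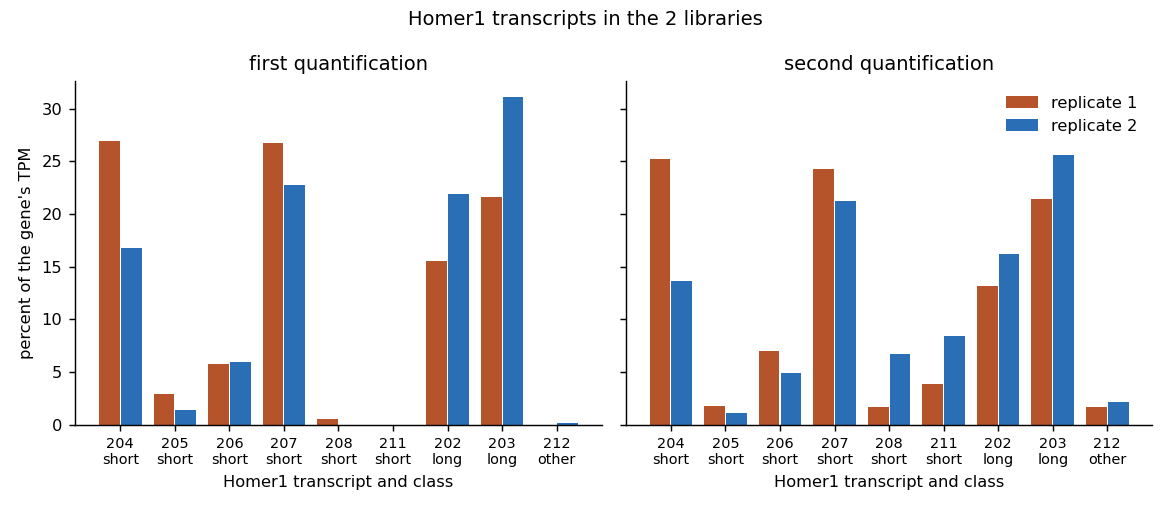
Percent of Homer1 TPM assigned to each transcript at 1 TPM or more (vertical axis, from 0) in replicate 1 (left bar) and replicate 2 (right bar), by the first and second quantification. Homer1-204 held 26.9% in replicate 1 and 16.8% in replicate 2 by the first, and 25.2% and 13.6% by the second.

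A few transcripts that count as short by codon number keep the last exon of the long forms, and here the quantifications differ. Homer1-208 had 0.53% of the gene in replicate 1 and 0% in replicate 2 in the first, but 1.72% and 6.74% in the second. Homer1-211 was at 0% in both libraries in the first and at 3.87% and 8.46% in the second. The processed transcript Homer1-212, neither short nor long, had 0% and 0.18% in the first and 1.72% and 2.18% in the second. Restricted to the forms that end earlier, the short transcripts were 2.13-fold higher in replicate 1 by the first quantification and 2.11-fold by the second.

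Sequence inside the Homer1 introns gave a reading that does not rest on dividing reads among its transcripts. A pair of annotated entries on the same strand, Gm47075 (93312041 to 93314055) and Gm47088 (93317427 to 93319065), touch no Homer1 exon, and were looked at after their values were seen. Gm47075 had 101 counts in replicate 1 and 47 in replicate 2, 2.35-fold higher (interval 1.69 to 3.49). Gm47088 had 74 and 42 counts, 1.93-fold higher (1.34 to 2.96). Both entries were at least 1.5-fold higher in replicate 1, where 1.84% of all genes were. With 47 and 42 counts in replicate 2, they reached the minimum mean of 50 only through replicate 1. That share therefore cannot tell how unusual these entries are. Whether the reads of these entries are unspliced Homer1 RNA was not tested. Both entries lie within the span of short and long forms alike, so they do not show which forms differed.

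The Homer1 forms start at different places, and RefSeq (GRCm38.p6) gives promoter windows for both an upstream and a downstream start. The 100 bases before each are shown 5′ to 3′ on the plus strand, with capitals for TGACG, the core of the cyclic AMP response element bound by Creb, and its reverse complement CGTCA.
chr13:93303657-93303756: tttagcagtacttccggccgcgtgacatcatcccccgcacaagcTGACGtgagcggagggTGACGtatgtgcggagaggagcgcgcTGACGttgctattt
chr13:93307934-93308033: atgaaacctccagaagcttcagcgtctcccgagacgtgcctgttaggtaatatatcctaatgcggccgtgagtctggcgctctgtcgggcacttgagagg
The upstream stretch, which ends where Homer1-207 begins, holds 3 matches, and the downstream stretch, which ends where Homer1-202 begins, holds 0. The windows do not divide short from long forms: the short Homer1-204 (93304495) and the long Homer1-203 (93304799) both start between them. Of 32851 promoter windows of 300 bases (250 before the start and 50 after), 20.8% hold at least 1 match on either strand and 1.03% hold 3 or more. Windows were matched for 7 of the 10 genes, 10 windows in all, and the only other match was 1 in Dlgap4. A match is a run of letters, not a measured site.

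The genes of the proteins that these scaffolds hold were compared in the same way. Of 20 binding partners, 0 were at least 25% apart, where 13.0% of all genes were. Every partner had 557 counts or more in each library, while that share takes in genes down to a mean of 50 counts. Of the partners, 11 were higher in replicate 1 and 9 in replicate 2. Their median log2 ratio was 0.02, against 0.00 over all genes. Camk2a, the kinase of the postsynaptic density, was the highest with 1039 TPM in replicate 1 and 1077 TPM in replicate 2. Dlg4, which encodes PSD-95 and binds Dlgap, had 362 and 377 TPM. Dynll1, a dynein light chain that binds Dlgap1, had 328 and 283 TPM. Beside these, Shank1 and Dlgap1 were of the same order as Dlg4 in TPM.

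Activity-induced genes were higher in replicate 1, as the short Homer1 transcripts were. Of 11 such genes, 11 were at least 25% higher in replicate 1, where 5.97% of all genes were, and 7 were at least 2-fold higher, where 0.550% were. Their median log2 ratio was 1.18. Arc, which encodes a capsid-like protein that drives AMPA receptor removal, had 163 TPM in replicate 1 and 27.8 TPM in replicate 2, 6.05-fold higher. The nuclear receptor Nr4a1 had 76.1 and 23.4 TPM, 3.40-fold higher, and the transcription factors Egr1 and Egr3 were 1.75-fold and 1.35-fold higher. The direction of this list was already known from earlier results of these libraries, so neither its count nor its range is independent evidence. On this scale the short Homer1 transcripts, at a log2 ratio of 1.09, lay within the range of the list, 0.43 to 2.60. The long transcripts, at 0.08, lay below it. Whether the Homer1 difference shares a cause with that of the list was not tested.

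**Figure D5:**
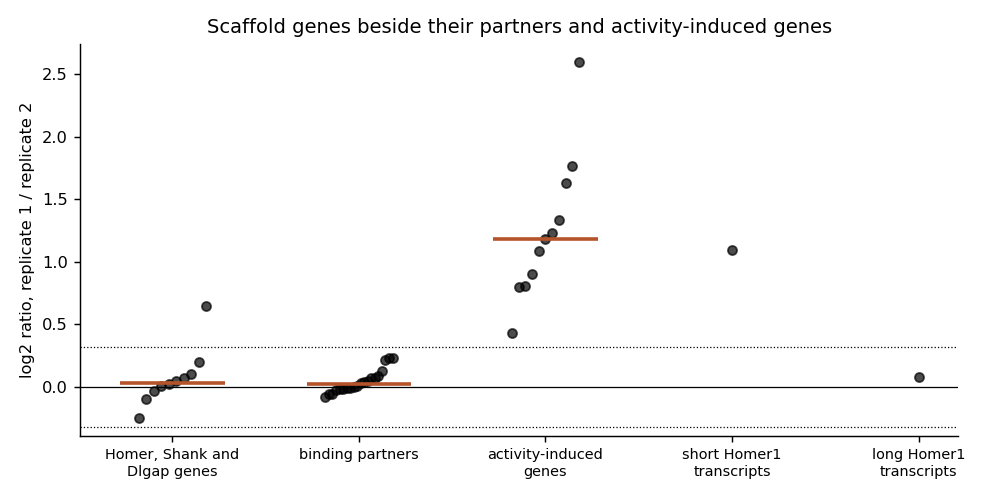
Log2 ratio of replicate 1 over replicate 2 (vertical axis) for the 10 scaffold genes, 20 binding partners and 11 activity-induced genes (points, with the median as a line), and for the summed short and long Homer1 transcripts. The activity-induced genes lie from 0.43 to 2.60, the short Homer1 transcripts at 1.09 and the long at 0.08.

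Markers of cortex were present together with markers of striatum. An excitatory neuron list summed to 1539 TPM in replicate 1 against 1601 in replicate 2, of which Camk2a alone had 1039 and 1077 TPM. A list of 5 striatal projection neuron genes summed to 409.9 TPM in replicate 1 and 444 TPM in replicate 2, of which Ppp1r1b had 259 and 287 TPM, Drd1 41.7 and 36.4 TPM and Adora2a 33.1 and 36.5 TPM. The part of striatal tissue in the members' levels was not tested. Of the cerebellar list, Pcp2, Gabra6 and Cbln3 were at 0.24 TPM or less in both libraries, and Calb2, which cortical interneurons also express, had 11.1 and 14.5 TPM. Pan-neuronal genes differed by a median log2 ratio of -0.05, and 0 of 5 were 25% apart, where 13.0% of all genes were. That share takes in genes down to a mean of 50 counts, and each of these 5 had 4586 or more. The 4 choroid plexus genes, none at 0, summed to 26.4 TPM in replicate 1 and 5.84 TPM in replicate 2. Of the 3 counted members, 3 were at least 2-fold higher in replicate 1, where 0.550% of all genes were. Kcnj13, with 134 counts in replicate 1 and 45 in replicate 2, reached the minimum mean of 50 through replicate 1. The part of the choroid plexus genes in the Homer1 difference was not tested. The tables held 26855126 expected counts over gene entries in replicate 1 and 30060673 in replicate 2, and the coefficient of variation between the animals was 0.109 for the 18284 genes that averaged 10 counts or more.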

How the data were processed

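Total RNA-seq libraries from 2 cortices were used. The authors deposited, per the file headers, expected counts, TPM and FPKM for each gene and transcript and each transcript's percent of its gene, and this is called the first quantification. The second quantification is a further table of estimated counts and TPM, which the authors made from 2 read files for replicate 1 and 1 for replicate 2. The notes deposited with the files give mm10 and GENCODE M21. The programs and settings, strand included, were not given in the sources used here. Reads of the CAST alleles were quantified on the same mm10 annotation. The second TPM shift as a whole between the libraries, so ratios there use counts.

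Expected counts were rounded and scaled by TMM (edgeR 4.0.16, R 4.3.3), leaving out 356 ribosomal RNA genes. Ratios used a prior count of 2. The scripts were tested on simulated data. Sums and shares were computed in Python 3.11.15. Since there was 1 group, the labels' replicates are set side by side. P-values are not given, and the SD over 2 animals may partly be technical.

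Genes and transcripts are named by rule: all members; Homer1 transcripts at 1 TPM or more; of other members, the leading transcript and those with a mean share of at least 20%; the 3 highest partners, the lowest (not reported here) and any at least 25% apart; and the 4 highest activity genes. Members and lists were chosen with earlier results of these data known. Alternatives were DESeq2 1.42.0 size factors, ERCC scaling, other prior counts, filters and form definitions, FPKM and the second quantification.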

Additional observations from a re-analysis of the deposited data

How the results depend on the processing

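Homer1 stayed the 1 member at least 25% apart between the animals under every scaling, prior count and quantification tried, and the order of the 10 genes kept at least 8 places. The log2 ratio of the short Homer1 transcripts, 1.09, was 1.16 with ERCC spike-ins, 1.02 by the second quantification, 0.97 as a ratio of TPM and 1.27 for Homer1-204 alone, a definition chosen after seeing the data. For the long transcripts, 0.08 became 0.15 with ERCC spike-ins and 0.15 by the second quantification. Spike-in scaling moved the median of all genes by 0.07. Homer1-204 alone was 21.9% of the gene, against 54.9% for all short transcripts, a share that ran from 46.9% to 62.9% when either replicate was left out. Depending on the filter, 4211 genes (mean of at least 10 counts) or 682 (at least 200) were 25% apart, against 1838 at 50, and 624 or 33 were 2-fold apart, against 122; fewer or more genes enter each count. No paired analysis was possible because there is 1 group. Depth limits Homer3, at 122 and 163 counts. With 1 library per animal, animal and library cannot be told apart.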
